A study of Mus musculus with 6 samples.

Results

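The genes described here encode the granins and neuropeptides that adrenal chromaffin cells store and release. They are 10 genes, namely Chga, Chgb, Scg2, Scg3, Scg5, Cartpt, Npy, Penk, Vgf and Gal, and were taken as every probe whose symbol matched 1 of these names or its older form (Cart for Cartpt, Penk1 for Penk). They have 15 of the 45281 probes on the array. The mice were adult virgin females of strain B6.FVB, and RNA of their whole adrenal glands was read on Illumina bead arrays. A group of 3 arrays is labelled as Gata6 conditional knockout (cKO), and the other 3 arrays, the controls, hold glands of normal mice. What drove the deletion, and whether each array stands for its own animal, cannot be told from the labels, so p-values reflect the spread among these samples alone, which may be technical.

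Chromaffin cells of the adrenal medulla package catecholamines in dense core granules together with granins, which are acidic proteins that aggregate with calcium and help to form the granule. Several granins and the neuropeptide precursors are cut at paired basic residues by prohormone convertases and trimmed by carboxypeptidase E, and the products leave the cell with adrenaline and noradrenaline when nerve or hormone signals trigger exocytosis. Many of these genes are known to respond to cAMP through a response element close to the start of transcription. Gata6 is a zinc finger transcription factor, and the comparison asks how these medullary transcripts read in glands labelled as its conditional knockout.

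The promoter set used here (RefSeq, GRCm38.p6) had an entry for 8 of the 10 genes. Penk and Vgf had none in it, so their promoters were not searched. The 250 bases before each start were searched on both strands for the complete cAMP response element, TGACGTCA, which reads the same on either strand, and for its core, TGACG or CGTCA, which lies inside it. The complete element was found in 3 of the 8, at position -112 of Cartpt, position -68 of Scg2 and position -72 of Chgb, counted to its first base from the start. It occurs in 1.55% of all 32851 promoters listed. The core alone was found in Chga at -44, Scg3 at -30 and Scg5 at -175, so that 6 of the 8 hold the core, against 17.8% of all promoters, while Npy and Gal hold neither. A match of letters is a description and shows no binding. The last 150 bases before the start are shown 5′ to 3′ for Cartpt (chr13:99900684-99900833, minus strand), Scg2 (chr1:79440027-79440176, minus strand) and Chgb (chr2:132781492-132781641, plus strand), which hold the complete element (capitals), and for Gal (chr19:3414545-3414694, minus strand), the gene with a lower reading on the arrays labelled cKO. The Cartpt window lies inside the longer RefSeq gene model of Cartpt. The lower reading of Gal did not pass (-0.17, limma, adjusted p = 0.606). Npy, which also holds neither the element nor the core, read 0.31 higher, likewise without passing.
Cartpt: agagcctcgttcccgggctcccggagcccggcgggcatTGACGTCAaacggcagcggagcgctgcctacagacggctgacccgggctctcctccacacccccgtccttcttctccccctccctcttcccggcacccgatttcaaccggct
Scg2: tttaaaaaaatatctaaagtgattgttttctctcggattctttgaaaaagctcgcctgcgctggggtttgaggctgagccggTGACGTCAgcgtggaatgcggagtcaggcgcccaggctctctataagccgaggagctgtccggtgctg
Chgb: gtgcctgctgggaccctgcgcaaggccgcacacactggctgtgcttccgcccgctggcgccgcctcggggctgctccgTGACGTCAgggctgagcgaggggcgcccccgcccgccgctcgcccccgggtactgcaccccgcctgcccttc
Gal: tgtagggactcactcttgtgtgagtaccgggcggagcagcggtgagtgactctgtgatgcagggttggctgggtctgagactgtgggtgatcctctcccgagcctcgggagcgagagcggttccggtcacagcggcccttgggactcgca

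Each array detected between 18314 and 19459 probes, and 19210 probes for 13327 genes were tested. All 13 tested probes of the 10 genes were detected on all 6 arrays, and the other Scg2 and Vgf probes were detected on 0 arrays. Th, Dbh and Pnmt of the medulla and Star and Cyp11b1 of the cortex were likewise detected on all 6 arrays. The Gata6 probe read 11.80, 11.66 and 11.71 normalized log2 units on control arrays 1 to 3, against 11.99, 12.06 and 12.31 on cKO arrays 1 to 3. It was thus higher, not lower, on the arrays labelled cKO (0.40, SE 0.10, limma, adjusted p = 0.0545). No source used here places this probe inside or outside the deleted sequence, so the label could not be checked with it, and directions in the text refer to how the arrays are labelled.

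Of the 10 genes, Cartpt, Scg2 and Scg3 rose on the arrays labelled cKO and 0 fell (limma across all tested probes, Benjamini-Hochberg adjusted p under 0.05). At an unadjusted p under 0.05, 8 of the 10 were higher and 0 lower, against 23.7% of all tested genes in either direction. Over all tested genes, 4.34% were called higher and 2.64% lower. The difference lay above 0 in 9 of the 10 genes, against 47.7% of all tested genes, with a median of 0.46 log2 units against -0.01 over all tested genes. In 7 of the 10 all 3 arrays labelled cKO read above all 3 control arrays, a pattern seen in 14.3% of all tested genes. Among these 7, Chgb and Npy overlapped between the groups in the deposited signals, before any scaling between arrays. The shares above describe 10 genes that were chosen together, and which cells carried each transcript was not measured. In whole glands, a larger share of chromaffin cells and more RNA per cell cannot be told apart.

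**Figure D1:**
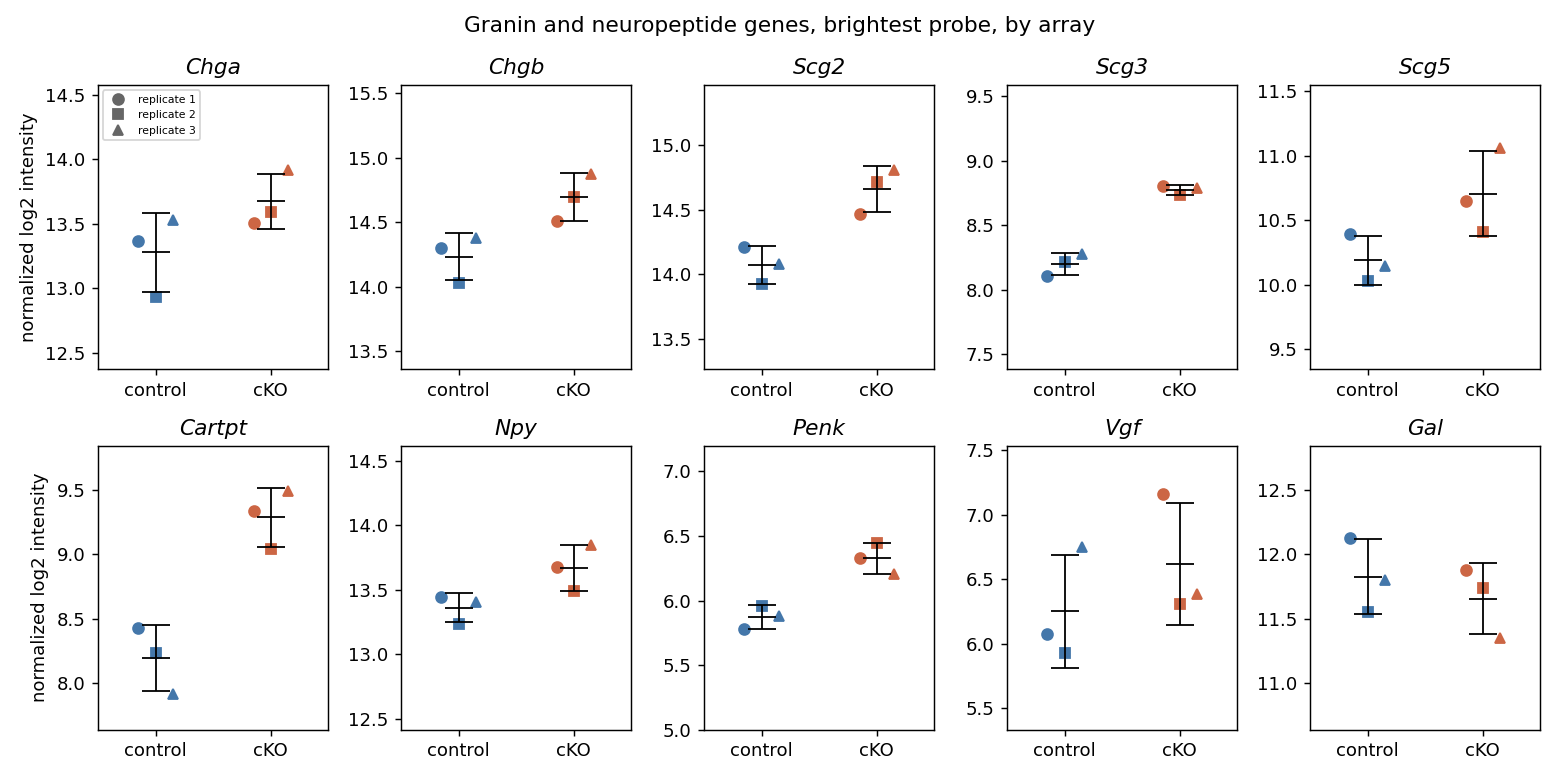
Normalized log2 intensity of the brightest probe of each gene on each array; blue points are control arrays, orange points arrays labelled cKO, shapes give the replicate number, and the horizontal mark and bar give mean and SD (n = 3). Every panel spans the same number of log2 units; the groups separate in Chgb, Scg2, Scg3, Scg5, Cartpt, Npy and Penk and overlap in Chga, Vgf and Gal.

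Cartpt, the precursor of the peptide known as cocaine- and amphetamine-regulated transcript, differed most. Its brighter probe read 8.42, 8.24 and 7.92 on control arrays 1 to 3 and 9.33, 9.04 and 9.49 on cKO arrays 1 to 3, so the lowest of the latter stood clear of the highest control. In the deposited signals, before any scaling between arrays, the same probe read from 234 to 309 on the control arrays and from 506 to 780 on the arrays labelled cKO. The difference of 1.09 (SE 0.17, adjusted p = 0.0084) is a 2.14-fold rise with a 95% interval from 1.63 to 2.79. The second Cartpt probe, listed in the file under the current symbol, rose by 1.05 (SE 0.14, adjusted p = 0.0049) and also separated the groups. Cartpt stayed past the threshold under each of the 13 alternatives tried, with differences from 0.95 to 1.23.

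The granins Scg2 and Scg3 rose by smaller amounts. Scg2 encodes secretogranin II, the precursor of secretoneurin. It read 14.21, 13.92 and 14.08 on controls against 14.46, 14.71 and 14.80 on cKO arrays, a difference of 0.59 (SE 0.11, adjusted p = 0.0192). Scg3, a granin that anchors granule cargo to cholesterol-rich membrane, read 8.11, 8.22 and 8.28 against 8.80, 8.73 and 8.79. Its arrays lay close together within each group, and the difference was 0.57 (SE 0.11, adjusted p = 0.0231). Without control replicate 2, cKO replicate 2 or cKO replicate 3 neither passed (adjusted p from 0.0590 to 0.0793 for Scg2 and from 0.0630 to 0.0914 for Scg3), Scg2 missed narrowly without control replicate 3 (adjusted p = 0.0504), and Scg3 missed without control replicate 1 (adjusted p = 0.0782). With the replicate number as a block, Scg3 had an adjusted p = 0.0553.

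The chromogranins Chga and Chgb, the classical markers of chromaffin granules, read higher without passing. Chgb read 14.30, 14.03 and 14.38 on controls against 14.51, 14.70 and 14.88 on cKO arrays. The groups did not overlap, and the difference was 0.46 with a 95% interval from 0.19 to 0.74 (SE 0.12, adjusted p = 0.0592). In the deposited signals the groups did overlap, with control replicate 3 (23206) above cKO replicates 1 and 2 (21503 and 22449). With array weights Chgb passed (adjusted p = 0.0286), as it did when cKO replicate 1 was dropped (adjusted p = 0.0374). The brightest Chga probe read 13.37, 12.93 and 13.53 against 13.51, 13.59 and 13.92, so control replicate 3 lay above cKO replicate 1. The 3 Chga probes gave differences of 0.39, 0.38 and 0.26, with adjusted p-values from 0.192 to 0.256. Scg5, the secretory chaperone of the convertase Pcsk2, read 10.40, 10.03 and 10.14 against 10.65, 10.41 and 11.06, a difference of 0.52 (SE 0.17, adjusted p = 0.114). Its lowest array labelled cKO and its highest control array almost touched.

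Among the remaining neuropeptides, Npy, whose peptide is released with catecholamines and constricts vessels, read 13.44, 13.24 and 13.40 on controls against 13.67, 13.49 and 13.84 on cKO arrays. The groups stood just apart, by 0.31 in the mean (SE 0.11, adjusted p = 0.129). In the deposited signals cKO replicate 2 (10039) lay below all control arrays, which read from 10252 to 11887. Penk, the enkephalin precursor, was dim, at 5.78, 5.96 and 5.88 against 6.33, 6.45 and 6.21. Its difference of 0.46 (SE 0.15, adjusted p = 0.107) lies close to the lowest detected signals of the arrays, where the background correction pulls differences toward 0. Vgf, a granin-like precursor induced by nerve growth factor, read 6.08, 5.92 and 6.75 against 7.16, 6.31 and 6.38. The groups overlapped and the interval of the difference ran from -0.28 to 1.02, so neither direction was settled (0.37, SE 0.29, adjusted p = 0.493).

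Gal, the galanin precursor, was the exception in direction. It read 12.13, 11.55 and 11.80 on controls against 11.88, 11.74 and 11.35 on cKO arrays, with the groups overlapping. The difference was -0.17 with a 95% interval from -0.56 to 0.22 (SE 0.17, adjusted p = 0.606). A rise as large as that of Scg2 or Scg3 lies outside this interval.

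**Figure D2:**
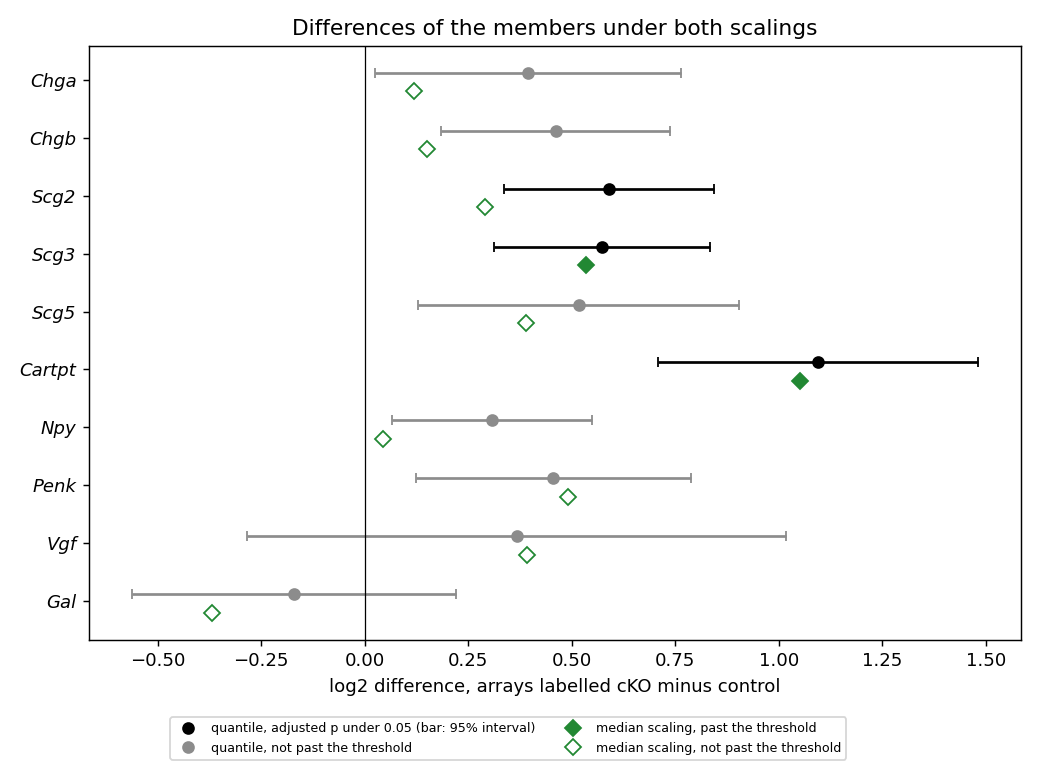
Log2 difference of each gene's brightest probe, arrays labelled cKO minus control; circles with 95% intervals are from quantile normalization (black past the threshold, grey not), and diamonds are the same differences under median scaling (filled past the threshold, open not). Cartpt and Scg3 are past the threshold under both scalings and Scg2 under quantile normalization alone, and the bright genes Chga, Chgb, Scg2 and Npy move toward 0 under median scaling.

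The way arrays were scaled mattered for the bright members. When arrays were brought to a common median instead of a common distribution, Cartpt (1.05, adjusted p = 0.0091) and Scg3 (0.53, adjusted p = 0.0265) passed and Scg2 did not (0.29, adjusted p = 0.106). Chga, Chgb and Npy read 0.12, 0.15 and 0.04 under it, and Gal -0.37 (adjusted p = 0.183). The 1206 tested genes with a mean level of at least 12 had a median difference of -0.27 under median scaling and -0.01 under quantile normalization, and Chga, Chgb, Scg2 and Npy are among them, while Gal lies just below that level. For all tested genes the medians were -0.09 and -0.01. The dim genes Penk and Vgf read 0.49 and 0.39 under median scaling, close to their values above.

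The members' levels also varied among arrays of 1 label. The median over the 10 genes, relative to each gene's control mean, was 0.08, -0.16 and 0.03 on control arrays 1 to 3 and 0.42, 0.39 and 0.61 on the arrays labelled cKO. Control replicate 2 was the lowest control array in 7 of the 10 genes, and cKO replicate 3 was the highest array labelled cKO in 6. Over the 6 arrays, 8 of the 10 genes followed the mean pattern of the members with a Pearson r from 0.77 to 0.93, whereas Vgf had r = 0.57 and Gal r = -0.22. These correlations include each gene in its own reference and largely hold the group difference, so they only describe. Among 6161 other named genes at a mean level of at least 8, the patterns most like it were those of Krtcap3 (r = 0.998), Prkcz (r = 0.992), Rims3 (r = 0.990), Serping1 (r = 0.989) and Iqsec3 (r = 0.989). Of these, Prkcz, Rims3, Serping1 and Iqsec3 were themselves called higher, by 0.94, 0.69, 0.94 and 0.75, and Krtcap3 was not (0.35, adjusted p = 0.100). They were picked for a pattern that largely holds the group difference, so their calls only describe.

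The peptide genes were then set beside the catecholamine machinery of chromaffin cells. Each was compared with the mean log2 level of Th, Ddc, Dbh and Pnmt on the same array. The reference list also held the vesicular monoamine transporter genes Slc18a1 and Slc18a2, which were detected on 1 array each, were not tested and did not enter the mean. That mean read 11.75, 11.35 and 11.75 on controls against 12.02, 12.08 and 12.23 on cKO arrays, a difference of 0.49. Relative to it the differences of Chgb, Scg2, Scg3, Scg5, Penk and Chga lay between -0.10 and 0.10, those of Vgf and Npy were -0.13 and -0.19, and the median over the 10 genes was -0.03. In all of these 8 genes the groups overlapped. Among the reference genes Pnmt rose most (0.97), against 0.48 for Th, 0.31 for Ddc and 0.22 for Dbh. The size of these relative differences thus leans on Pnmt, and a reference without Pnmt was not tried.

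Cartpt and Gal were the exceptions in this within-array comparison. Cartpt was 0.60 higher relative to the catecholamine genes, at -3.32, -3.11 and -3.84 on controls against -2.69, -3.04 and -2.74 on cKO arrays. The groups did not overlap, which held for 1.74% of all tested genes in this direction, and the exact two-sided permutation p = 0.1 is the smallest that 3 arrays against 3 allow. Gal was 0.66 lower, at 0.38, 0.21 and 0.05 against -0.14, -0.33 and -0.88 (exact permutation p = 0.1, the smallest possible). That direction was common, since 62.8% of all tested genes fell below the catecholamine genes without overlap, with a median of -0.51 over all tested genes. Gal thus read like the bulk of the genes in this measure. Leaving out single arrays gave from 0.39 to 0.75 for Cartpt and from -0.82 to -0.45 for Gal. Under median scaling Cartpt and Gal again did not overlap (0.76 and -0.66), and Chga (-0.17) and Chgb (-0.14) then separated downward as well.

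**Figure D3:**
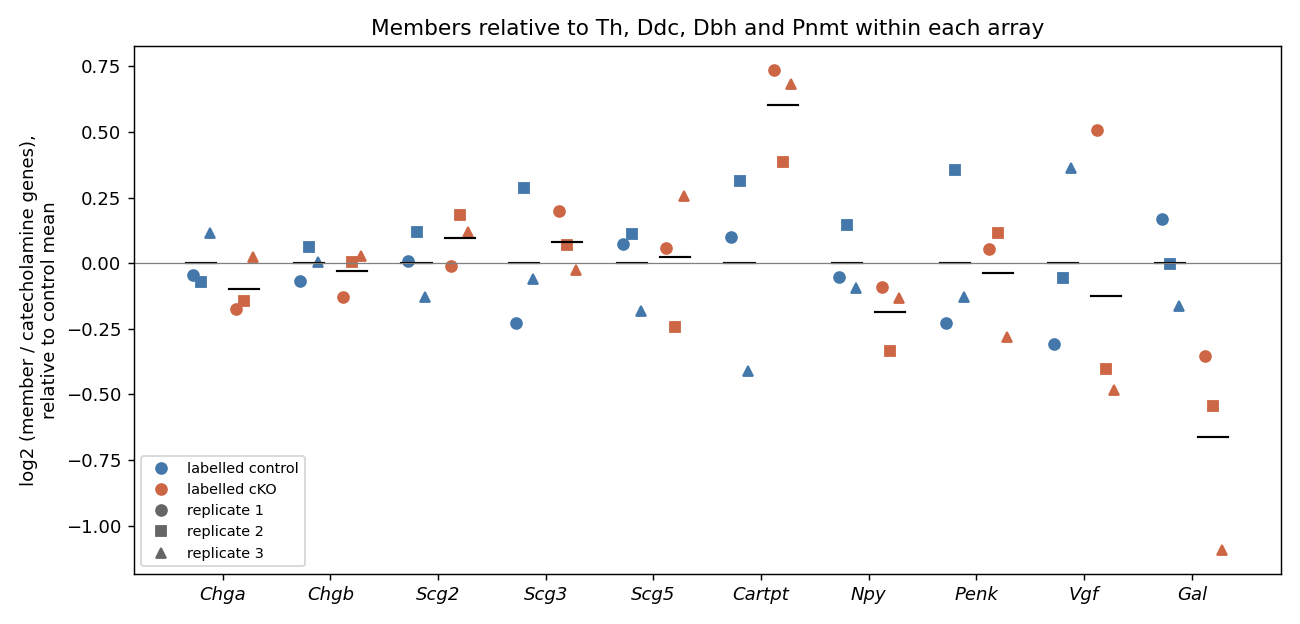
Log2 level of each gene minus the mean log2 level of Th, Ddc, Dbh and Pnmt on the same array, shown relative to the control mean of that gene; colours give the label, shapes the replicate number and black lines the group means. Most genes scatter around 0, Cartpt lies above its controls on all 3 arrays labelled cKO and Gal below.

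Among the catecholamine genes 6 of 9 tested read above 0, with 1 call. Pnmt, the enzyme that makes adrenaline, rose by 0.97 (SE 0.19, adjusted p = 0.0221), and the median of the list was 0.31. The synthesis enzymes Th, Ddc and Dbh read 0.48 (adjusted p = 0.113), 0.31 (adjusted p = 0.134) and 0.22 (adjusted p = 0.275) without passing. Slc6a2, the noradrenaline transporter gene, read -0.06, and Gch1 and Qdpr, which serve the making and recycling of the cofactor tetrahydrobiopterin, read -0.04 and -0.0006. The within-array reference used above thus holds 4 genes that all read higher, and not these 3. Among 18 other tested chromaffin markers, 6 rose and 0 fell, with a median of 0.42. They were the transcription factor gene Isl1 (1.02, SE 0.13, adjusted p = 0.0040), the exocytosis genes Stx1a (0.80, SE 0.13), Syp (0.61, SE 0.15), Syt1 (0.47) and Syt4 (0.47), and the ubiquitin hydrolase gene Uchl1 (0.44). Under median scaling 2 of the 6, Isl1 and Stx1a, passed.

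The machinery that turns these precursors into peptides was tested through 16 genes of peptide processing and the granule membrane. By the brightest probe of each gene 0 rose and 0 fell in limma at the adjusted threshold, while at an unadjusted p under 0.05 5 were higher and 1 lower, with a list median of 0.23. Pcsk1n, the granin-like inhibitor of the convertase Pcsk1, read 0.52 higher (adjusted p = 0.0503), and Cpe, the carboxypeptidase that trims basic residues, 0.32 higher (adjusted p = 0.137). Pam, which amidates peptide ends, read 0.67 higher with an SE of 0.35 and was detected on 1 control array. Pcsk2, the convertase that Scg5 escorts, read 0.90 higher by its brightest probe (SE 0.25, adjusted p = 0.0737), and 0.92 higher under median scaling, where it passed (adjusted p = 0.0496). Another of its 4 tested probes, detected on 0 control arrays and all 3 arrays labelled cKO, was at least 1.87-fold higher. It entered the test only through the arrays where it was high, so its p-value is not given. Pcsk1 was detected on 0 arrays.

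Other neuropeptides and peptide hormones were mostly below detection, with 22 of 33 listed genes detected on 0 arrays. Of 9 tested, Agt and Vip passed upward and 0 fell, and Vip entered the test only through the arrays labelled cKO, so that it counts as a description. Vip, the vasoactive intestinal peptide precursor, was detected on 0 control arrays and on all 3 arrays labelled cKO, where it was at least 2.93-fold higher. Agt, the angiotensin precursor, rose by 1.27 (SE 0.24, adjusted p = 0.0194) and was detected on 2 of the control arrays, so the size of its rise rests partly on background signal. The median of this list was 0.04. Of 5 tested receptors for the members' peptides 0 passed in limma, and 0 had an unadjusted p under 0.05, with a median of -0.12, the brightest, C1qbp, which binds several ligands, reading -0.12 (SE 0.09). Of 10 tested immediate early and cAMP-responsive genes, Jun fell (-0.60, SE 0.15, adjusted p = 0.0479) and 0 rose. Fos read -1.56 with an SE of 0.80, and the list mean ranged from -1.22 to 0.99 around the control mean on the control arrays alone.

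**Figure D4:**
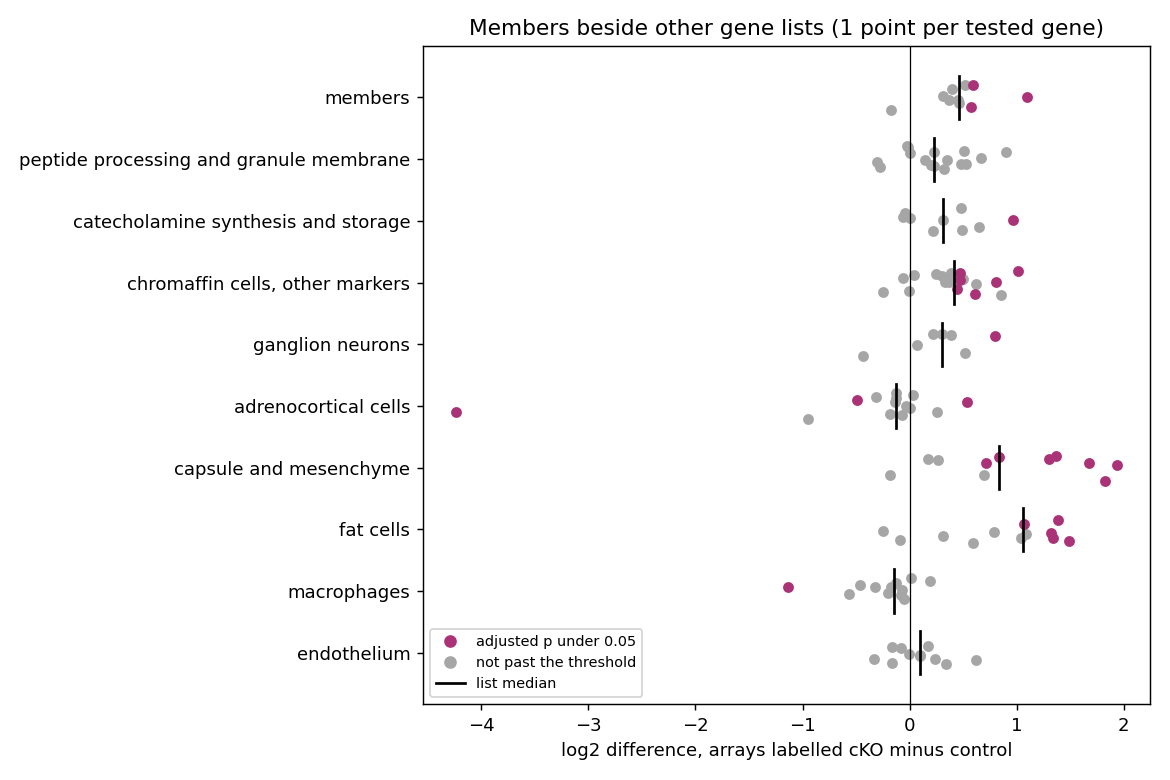
Log2 differences (arrays labelled cKO minus control) of all tested genes of 10 lists, 1 point per gene, purple past the adjusted threshold and grey not; black lines are list medians. The members and the lists of peptide processing, catecholamine synthesis and other chromaffin markers have medians between 0.23 and 0.46. The ganglion neuron list (0.30) lies in the same range. The medians of the capsule and mesenchyme (0.83) and of fat cells (1.06) lie above it.

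Markers of other cell types moved on the same arrays. In the capsule and mesenchyme list 7 of 11 tested genes rose and 0 fell, with the largest rises in Lum (1.94), Acta2 (1.82), Tcf21 (1.67) and Myh11 (1.37). Its summed normalized intensity ran from 14432 to 16340 on the control arrays and from 29365 to 39389 on the arrays labelled cKO, and Gli1 and Postn were detected on 0 arrays. In the fat cell list 5 of 12 rose and 0 fell, among them Cidec (1.49), Adipoq (1.38), Lpl (1.34) and Car3 (1.32), and the sum ran from 35958.5 to 41865 and from 71473 to 115930. Fabp4 and Retn were detected on 0 arrays. In that list 10 of the 12 tested genes read above 0, while Plin4 (-0.09) and Ucp1 (-0.25, SE 0.95) read below it. Ucp1 varied widely, at 10.83, 12.35 and 7.66 on cKO arrays 1 to 3. The part of these tissues in the rise of the granin and neuropeptide genes was not tested.

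Nerve-associated cells could also carry some of the peptide transcripts. In the ganglion neuron list Map2 rose (0.80, SE 0.12, adjusted p = 0.0080), 1 of 7 tested. Of these 7 genes 6 read above 0, with a list median of 0.30. At an unadjusted p under 0.05 in limma, 3 were higher and 1 lower. Of these 3, Elavl4 was detected on 0 control arrays and on all 3 arrays labelled cKO. Elavl4 thus entered the test only through the latter, and its value, which is the list median, counts as a description. The gene below 0 was Prph, which encodes the neuronal filament protein peripherin. It read -0.43 without overlap of the groups and did not pass (adjusted p = 0.175). In that list 6 of 17 listed markers, Nefl, Gap43, Tubb3, Slc5a7, Chat and Slc18a3, were detected on 0 arrays. The summed intensity of that list ran from 1549 to 1613 on the control arrays and from 1976 to 2473 on the arrays labelled cKO. The part of these cells in the result was not tested. Among 14 tested adrenocortical genes Mc2r rose (0.54) and Akr1c18 and Fdxr fell (-4.24 and -0.49), with a median of -0.13. The summed intensity of the adrenocortical list ran from 128662 to 159076 on the control arrays and from 116880 to 128957 on the arrays labelled cKO. Under median scaling Mc2r did not pass (0.30, adjusted p = 0.120). Of 12 macrophage genes Cd68 fell (-1.13, SE 0.16) and 0 rose in limma. In that list 3 genes were lower and 0 higher at an unadjusted p under 0.05, with a median of -0.15. Of 11 endothelial genes 0 passed in limma. Under median scaling Plvap, the gene of a protein of endothelial diaphragms, fell by 0.53 (adjusted p = 0.0225), against -0.34 and an adjusted p = 0.0703 under quantile normalization, and 2 macrophage genes fell. At an unadjusted p under 0.05, 2 endothelial genes were higher and 1 lower, and the brightest, Emcn, read 0.10 (SE 0.14), or -0.14 under median scaling.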

How the data were processed

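Gene expression was measured in 6 whole adrenal gland samples, 3 labelled cKO and 3 control. Per the file headers, the authors deposited non-normalized probe intensity values, each with a detection p-value; the scanner software is not given there. Between 30.7% and 33.4% of an array's values lie below 0, so a background had been subtracted. The deposited series matrix holds intensity values whose columns share nearly the same sorted values, by a method not stated, and it served as an alternative. Background was corrected with normexp in limma 3.58.1 (R 4.3.3) from the detection p-values with an offset of 16, and log2 values were quantile normalized. A probe was tested where at least 3 arrays detected it (p-value under 0.05), which left 19210 of 45281. Symbols were updated with RefSeq (27740 current, 8037 older, 9504 unmatched), and the tested probe with the highest mean represents a gene. Groups were compared with lmFit and eBayes (intensity trend, no covariates, two-sided), with Benjamini-Hochberg adjustment over all tested probes and a threshold of 0.05. The fit was tested on simulated data with independent noise for each probe and no shift of whole arrays. Its outcome is not given here and does not bear on the choice of scaling. Levels and differences are log2 values, and a difference is cKO minus control.

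The members and the lists were chosen with earlier results of these data known, so list counts and medians are descriptions without a test. Named were all members, Gata6, up to 4 called genes with the largest change per list or else the brightest, selected catecholamine and processing enzymes, and the 5 genes most like the members by Pearson r. Other genes named were chosen after their values were seen. They include Slc6a2, Gch1, Qdpr, Slc18a2, Prph, Plvap, Syt4, Uchl1, Elavl4, Plin4, Ucp1, Vip's bound, Fos, Star, undetected markers and further Pcsk2 probes. A probe detected on 0 control arrays has a bound only: the cKO mean over the control mean, after raising each control value to at least the weakest detected signal of its array. Samples with the same replicate number did not deviate together (r = 0.04, 0.04 and -0.01), so the number was not taken as a pairing. The labels name no batch, and the number of arrays limits the precision. A further marker list that was planned is not reported here.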

Additional observations from a re-analysis of the deposited data

How the results depend on the processing

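Among the 10 members, differences kept their sign under all 13 alternatives (12 for Penk, not tested under the strict detection filter), and Chga, Scg5, Npy, Penk, Vgf and Gal stayed short of the threshold in each. Over all probes 753 were called higher and 494 lower, and leaving out each array in turn gave from 331 to 778 and from 192 to 487, with the lowest counts without cKO replicate 3. The fall in counts passed 1.5 times without control replicate 1 (485 and 297), control replicate 2 (376 and 212) and cKO replicate 2 (437 and 209). Median scaling gave 782 higher and 1106 lower, so that 41.4% of calls were higher against 60.4%. Called members numbered from 1 to 4 when single arrays were left out, 0 of them lower; Cartpt alone passed without control replicate 2, cKO replicate 2 or cKO replicate 3. The median difference of the members ran from 0.39 to 0.53 in these fits and was 0.34 under median scaling. Their median relative to catecholamine genes ran from -0.09 to 0.04 and was 0.14 with no filter on detection, where the dim Slc18a1 and Slc18a2 probes of the reference list enter the mean. With the replicate block, 602 probes were higher and 358 lower, and 2 members, Cartpt and Scg2, were called. Array weights called 4, with Chgb added. With 3 arrays a group, and Penk and Vgf near background, differences of their size may be missed.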
